A study of Mus musculus with 4 samples.

Results

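Of the 417506 ATAC-seq peaks called in 4 libraries of LβT2 cells, 5198 were assigned to an olfactory or vomeronasal receptor gene. A peak was taken as a member when the gene name in the authors' annotation was Olfr, Vmn1r or Vmn2r followed by digits alone, so the choice used the nearest named start site and no measured signal. Olfr genes accounted for 4043 of these peaks, Vmn1r genes for 471 and Vmn2r genes for 684. LβT2 cells are a mouse line of gonadotrope character, the pituitary cell type that secretes LH and FSH, and the growth label names the cells LβT2b. All cells were switched to medium without serum overnight before 6 h of either vehicle or 1 nM activin A, a TGFβ family ligand. ATAC-seq marks open DNA by the insertion of sequencing adapters by a transposase. There were 2 libraries per treatment, and nothing in the labels says whether these came from separate cultures, so the spread between them may be technical.

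Olfr genes encode the odorant receptors of the nose, and Vmn1r and Vmn2r genes the receptors of the vomeronasal organ, which detects pheromones. Both kinds lie in large clusters of related genes. An olfactory neuron transcribes 1 allele of 1 odorant receptor gene, while the other receptor genes in that neuron are held in heterochromatin. In cells outside the nose these genes are generally regarded as silent, which makes their surroundings a reference for closed chromatin. RNA was not analysed here, so silence in LβT2 cells was not measured. Of 7 gonadotrope markers with a start site in the RefSeq promoter table, 6 had a peak within 1 kb of it in all 4 libraries, among them Lhb, Cga and Gnrhr, and Fshb had none in any library.

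Regions that were strong in every library included promoters of genes neighbouring the receptors. No region annotated as the promoter of the receptor named was strong in any library. A region strong in each library at the Vmn1r4 start of the authors' annotation, labelled there as the promoter of Nt5c3, is described below. Promoter windows of neighbouring and of receptor genes are shown first. Each is the RefSeq (GRCm38.p6) sequence from 250 bases before to 50 after the start, with each CG dinucleotide in capitals. Mprip, which encodes a myosin phosphatase interacting protein, and Reck, which encodes a membrane-anchored inhibitor of metalloproteinases, lie beside Olfr225 and Olfr155. Olfr877, Olfr522 and Olfr332 are receptor genes whose own promoter-annotated peaks recurred between libraries. The windows are chr11:59662245-59662544 on the plus strand for Mprip, chr4:43875280-43875579 on the plus strand for Reck, chr9:37854570-37854869 on the plus strand for Olfr877, chr7:140162899-140163198 on the minus strand for Olfr522 and chr11:58492450-58492749 on the minus strand for Olfr332. Each lies wholly within a called region.
Mprip: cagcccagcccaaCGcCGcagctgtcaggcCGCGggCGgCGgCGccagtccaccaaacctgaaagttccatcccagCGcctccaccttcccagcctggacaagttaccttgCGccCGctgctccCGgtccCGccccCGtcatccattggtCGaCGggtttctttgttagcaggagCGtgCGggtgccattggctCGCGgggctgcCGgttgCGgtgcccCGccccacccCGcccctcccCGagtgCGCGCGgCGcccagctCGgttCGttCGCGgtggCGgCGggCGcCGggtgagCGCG
Reck: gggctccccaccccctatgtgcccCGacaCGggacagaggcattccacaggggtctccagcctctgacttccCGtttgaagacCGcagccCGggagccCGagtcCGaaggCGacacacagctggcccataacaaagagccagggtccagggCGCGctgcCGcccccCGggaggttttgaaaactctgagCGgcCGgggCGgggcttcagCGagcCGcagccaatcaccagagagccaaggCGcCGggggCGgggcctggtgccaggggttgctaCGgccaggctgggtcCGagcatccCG
Olfr877: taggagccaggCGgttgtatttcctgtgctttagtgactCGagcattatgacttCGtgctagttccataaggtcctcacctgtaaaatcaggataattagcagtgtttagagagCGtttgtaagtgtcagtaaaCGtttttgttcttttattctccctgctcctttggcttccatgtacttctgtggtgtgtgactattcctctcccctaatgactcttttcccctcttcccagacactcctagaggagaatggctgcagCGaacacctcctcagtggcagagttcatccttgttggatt
Olfr522: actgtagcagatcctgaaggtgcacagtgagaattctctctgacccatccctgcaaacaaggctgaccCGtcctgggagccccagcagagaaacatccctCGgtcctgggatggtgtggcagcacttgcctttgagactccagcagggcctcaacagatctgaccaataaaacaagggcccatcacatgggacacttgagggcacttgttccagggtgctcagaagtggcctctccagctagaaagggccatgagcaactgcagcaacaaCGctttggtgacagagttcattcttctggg
Olfr332: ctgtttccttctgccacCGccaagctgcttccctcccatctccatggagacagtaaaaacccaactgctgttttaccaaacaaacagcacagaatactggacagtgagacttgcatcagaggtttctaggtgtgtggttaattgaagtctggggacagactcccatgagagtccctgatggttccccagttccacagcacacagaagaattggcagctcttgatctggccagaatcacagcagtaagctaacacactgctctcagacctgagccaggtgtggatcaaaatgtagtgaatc
The Mprip window held 38 CG dinucleotides and the Reck window 23. The Olfr877, Olfr522 and Olfr332 windows held 6, 3 and 1. In the Olfr877 and Olfr522 windows the 50 bases after the start begin with ATG, the letters of a start codon. The start given for these genes may thus be that of the coding sequence and not of transcription. How many receptor starts are of this kind was not tested, so receptor windows may not all be promoters. Of the 1266 RefSeq promoter windows of receptor genes (1261 genes), 2.92% held at least 5 CG dinucleotides and 31.0% held none. Of the 32851 windows of all genes, 62.0% held at least 5 and 5.43% held none. The median window had 1 CG in each receptor family and 7 over all genes. The letters CCCNNGGG, the core of the sequence recognised by the Ebf factors of olfactory neurons, read the same on both strands and can overlap a CG. They occurred in 3.07% of Olfr windows, 0.488% of Vmn1r windows, 19.7% of Vmn2r windows and 13.7% of all windows. The median share of G and C bases was 35%, 36% and 38% in these 3 families and 52.7% over all windows. The fixed letters of CCCNNGGG are all C or G, and its shares were not adjusted for this. Of the windows printed, the Reck window alone held CCCNNGGG.

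Libraries are given in the order vehicle 1, vehicle 2, activin 1 and activin 2 from here on. The lists held 83344, 178358, 85112 and 70692 peaks, of which 1015, 2422, 963 and 798 were receptor peaks. The list of vehicle 2 was more than 2 times as long as any other, while total reads were 275983526, 346703170, 375610146 and 288489694. Receptor peaks therefore made up 1.22%, 1.36%, 1.13% and 1.13% of the lists. Counted against the list, both vehicle libraries lay above both activin libraries. The mean was 1.29% ± 0.0991 for vehicle and 1.13% ± 0.00185 for activin (SD, n = 2), a difference of -0.158 percentage points, with exact permutation p = 0.33 (2-sided), the smallest that 2 against 2 libraries can give. When the lists were limited to a −log10 q of 5 or more, the difference was 0.00904 percentage points, in the opposite direction.

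The peaks named 910 different receptor genes, all matched among the 1474 genes of these names in the RefSeq gene table. The 564 genes never named were 38.3% of the total. Olfr genes were named most often, 754 of 1117. Of Vmn2r genes 71 of 126 were named, and of Vmn1r genes 85 of 231, which left 63.2% of the Vmn1r genes with no peak nearer to them than to another start site. In all 4 libraries 300 genes were named, and 222 were named in 1 library.

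Receptor peaks lay mostly between genes. Intergenic peaks were 77.4%, 76.4%, 78.2% and 78.4% of receptor peaks, against 42.6%, 46.6%, 42.8% and 42.0% of the other peaks in the same lists. The difference was 34.1 ± 2.95 percentage points (mean ± SD over 4 libraries) and had this direction in 4 of 4. Introns held 6.60%, 6.32%, 6.13% and 8.15% of receptor peaks and 35.2%, 37.5%, 35.8% and 34.8% of the others. Exons held 11.9%, 13.6%, 10.7% and 9.40% of receptor peaks and 5.65%, 4.91%, 5.01% and 5.17% of the others. Odorant and Vmn1r receptors are encoded within a single coding exon, and 93.2% to 98.3% of the exon peaks lay in an exon of the receptor named. These exon peaks were weak, with a median −log10 q of 1.48 to 1.55, and the 1 exon peak per library with a −log10 q of 5 or more lay in an exon of another gene. Peaks annotated as promoter were 1.87%, 2.39%, 3.22% and 2.38% of receptor peaks and 13.1%, 7.58%, 13.1% and 14.9% of the others, a difference of -9.68 ± 3.18 percentage points. For each of these differences within a list the exact sign-flip permutation test over 4 libraries gave p = 0.13 (2-sided), the smallest it can give.

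**Figure D1:**
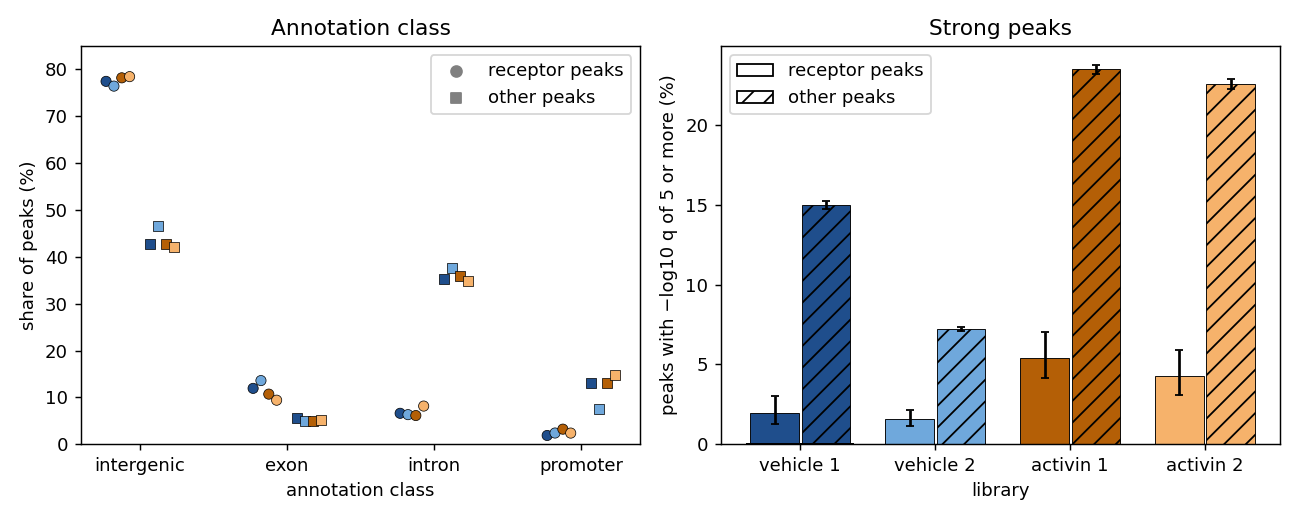
Left, share of receptor peaks (circles) and of all other peaks (squares) in each annotation class, in % of a library's list, with 1 point per library in the colours of the right panel. Right, share of peaks with a −log10 q of 5 or more, with 95% Wilson intervals. Receptor peaks were more often intergenic or exonic, and 1.57% to 5.40% were strong against 7.23% to 23.5% of the others.

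The families differed in where their peaks lay. Vmn1r peaks were intergenic in 91.1%, 94.6%, 95.7% and 92.0% of cases. Vmn2r genes, which have several exons spread over long introns, had 24.6%, 30.9%, 26.3% and 29.4% of their peaks in introns, against 4.08%, 2.68%, 3.46% and 4.64% for Olfr. Olfr genes had the highest exon share, 14.2%, 15.9%, 12.5% and 11.6%. Per gene in the RefSeq table, there were 0.702, 1.70, 0.673 and 0.541 peaks for Olfr, 0.437, 0.874, 0.403 and 0.325 for Vmn1r, and 1.03, 2.52, 0.937 and 0.944 for Vmn2r. The order Vmn2r, Olfr, Vmn1r was the same in each library. Median distance to the named start was 6.93 to 7.50 kb for Olfr, 10.6 to 12.0 kb for Vmn1r and 20.6 to 21.4 kb for Vmn2r.

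Strength was read from the −log10 q that the peak caller gave each peak, which is the authors' value and is compared only within a list. The median for receptor peaks was 1.49, 1.48, 1.64 and 1.61, and for other peaks 1.61, 1.49, 1.89 and 1.86. The difference averaged -0.153 ± 0.117 and was -0.0035 in vehicle 2, the smallest of the 4. The upper tail differed more. Receptor peaks with a −log10 q of 5 or more, called strong here, numbered 20, 38, 52 and 34, which is 1.97%, 1.57%, 5.40% and 4.26% of them. Among other peaks 15.0%, 7.23%, 23.5% and 22.6% were strong (difference -13.8 ± 5.93 percentage points, negative in 4 of 4 libraries, exact sign-flip p = 0.13). The strongest receptor peak of any list reached 28.4, and the strongest other peak 103 to 147. Fold enrichment over the caller's background did not separate the sets in this way, since its median for receptor peaks was higher by 0.0362 ± 0.0368.

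At the starts given for receptor genes a peak was uncommon. As in the Olfr877 and Olfr522 windows, such a start may be that of the coding sequence. The comparison with other genes may therefore not be between transcription starts. Within 1 kb of the start in the RefSeq promoter table, 11.3%, 28.1%, 10.0% and 7.66% of 940 Olfr genes had a peak. For 205 Vmn1r genes the share was 0.488% to 2.44%, and for 116 Vmn2r genes 0.862% to 3.45%. Among 16182 other protein-coding genes it was 61.6% to 69.1%. A peak in all 4 libraries was found at 17 Olfr genes, 0 Vmn1r genes and 0 Vmn2r genes, against 9303 of the other genes (57.5%). Except for Olfr329, none of the 17 Olfr starts had a strong peak. The highest value was 5.08, at Olfr329 in activin 1, where the other libraries had 1.59, 3.48 and 1.71. No other start of that table in these 3 families had a strong peak. With the 5′ end of the RefSeq gene as the start, an alternative added after seeing the data, 17 Olfr, 1 Vmn1r and 0 Vmn2r genes had a peak in all 4 libraries, and Olfr329 and Vmn1r4 were the genes with a strong one.

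**Figure D2:**
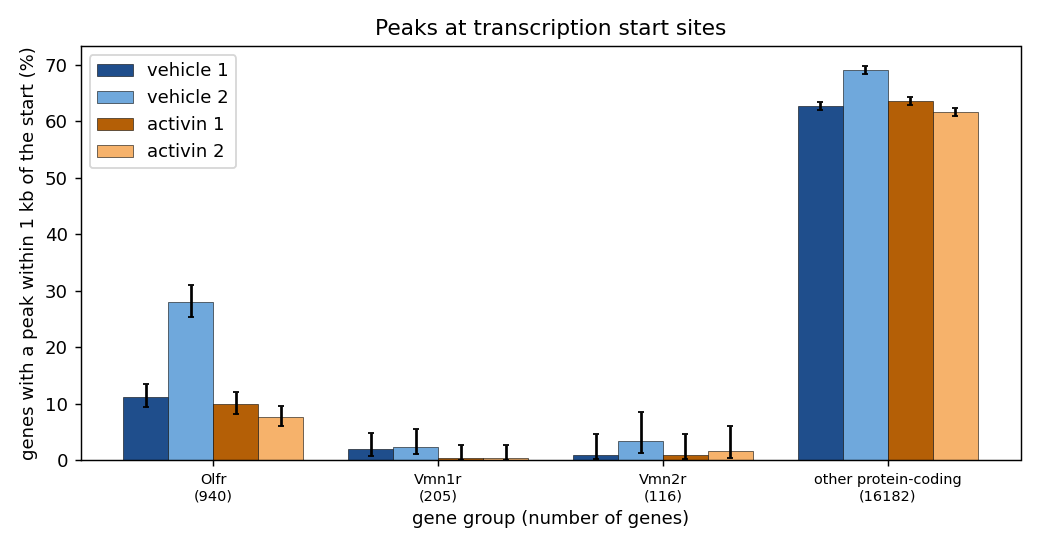
Share of genes with a called peak within 1 kb of the start in the RefSeq promoter table, in %, per gene group and library, with 95% Wilson intervals. For some receptor genes this start may be that of the coding sequence. Vmn1r and Vmn2r genes reached at most 3.45% in a library, Olfr genes reached 28.1% in vehicle 2, and other protein-coding genes lay between 61.6% and 69.1%.

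Merging overlapping peaks of the 4 libraries gave 75 regions annotated as the promoter of the receptor named. Of these, 57 had a peak in 1 library, 10 in 2, 6 in 3 and 2 in 4. None was strong in any library, and the median of their highest −log10 q was 1.52. The 2 found in all libraries were at Olfr877 (chr9:37854259-37855250), with −log10 q of 1.34, 1.73, 1.59 and 1.88, and Olfr229 (chr9:39909416-39910488), with 1.78, 1.23, 1.33 and 1.31. Olfr877 had 86, 181, 50 and 47 high-quality reads in its peaks, and Olfr229 had 70, 80, 71 and 91. The highest value at an own promoter was 3.79, at Vmn2r13 in activin 1, where vehicle 1 had 1.92 and the other libraries had no peak. Olfr332 had 2.25 in vehicle 2 and 2.38 in activin 1. Olfr522, whose window is printed above, had 1.46, 2.43 and 2.03 in the first 3 libraries and no peak in activin 2. Among the other promoter regions present in 2 or more libraries, those of Olfr1305, Olfr532 and Olfr536 had −log10 q between 1.47 and 1.67.

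A further 6 regions were named for a receptor but annotated as the promoter of another gene. There, 4 had a peak in all libraries and were strong in at least 1. The region named for Olfr225 (chr11:59661599-59662978) lies on the Mprip start, about 49.5 kb from Olfr225. Its −log10 q was 28.4, 17.5, 25.6 and 19.1, with 603, 843, 1213 and 891 reads. The region named for Olfr155 (chr4:43875045-43876112) lies on the Reck start and had 7.61, 5.79, 13.5 and 9.72. The region named for Olfr412, annotated as a promoter of Rap1gap2, a GTPase-activating protein gene, had 2.19, 1.77, 6.08 and 2.72. The Rap1gap2 start in the RefSeq promoter table is 113 kb from it. All 3 had a peak in every library, and the regions on the Mprip and Reck starts were strong in each.

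The region named for Vmn1r4 (chr6:56923469-56924503) was the only strong one whose centre lay within 1 kb of the named receptor start in the authors' annotation, at -93 to -10 bp, and it was strong in each library. The −log10 q was 14.9, 14.5, 24.0 and 23.0, with 340, 374, 675 and 486 reads. The same annotation calls it the promoter of Nt5c3, a nucleotidase gene. The 5′ end of the Vmn1r4 gene in the RefSeq gene table lies inside the region, while the start in the RefSeq promoter table lies 32.01 kb beyond its end. The nearest Nt5c3 start of the promoter table is 21.6 kb from the region.

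Most receptor regions were found once. Peaks of all libraries merged into 3439 regions with a receptor peak, and 2367 of these (68.8%, 95% Wilson interval 67.3 to 70.4) had a peak in 1 library, 1452 of them in vehicle 2. A peak in all 4 libraries was found in 198 regions (5.76%, 5.03 to 6.59). Of the 251662 other regions, 67.3% had a peak in 1 library and 11.8% in all 4. Recurrence rose with strength. Strength here is the highest value of the libraries with a peak, so regions found in more libraries had more chances to reach each limit. The rise is in part set by this choice. Of receptor regions reaching a −log10 q of 2 in some library, 23.2% were found in all 4. For 3 the share was 57.6%, and for 5 it was 88.7% (63 of 71, 79.3 to 94.2). In other regions the shares were 44.9%, 75.9% and 92.8%. The intervals of the receptor and other regions did not meet at 2 and 3, and the interval for the receptor regions included the other regions' share at 5. These intervals cover counting error only.

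**Figure D3:**
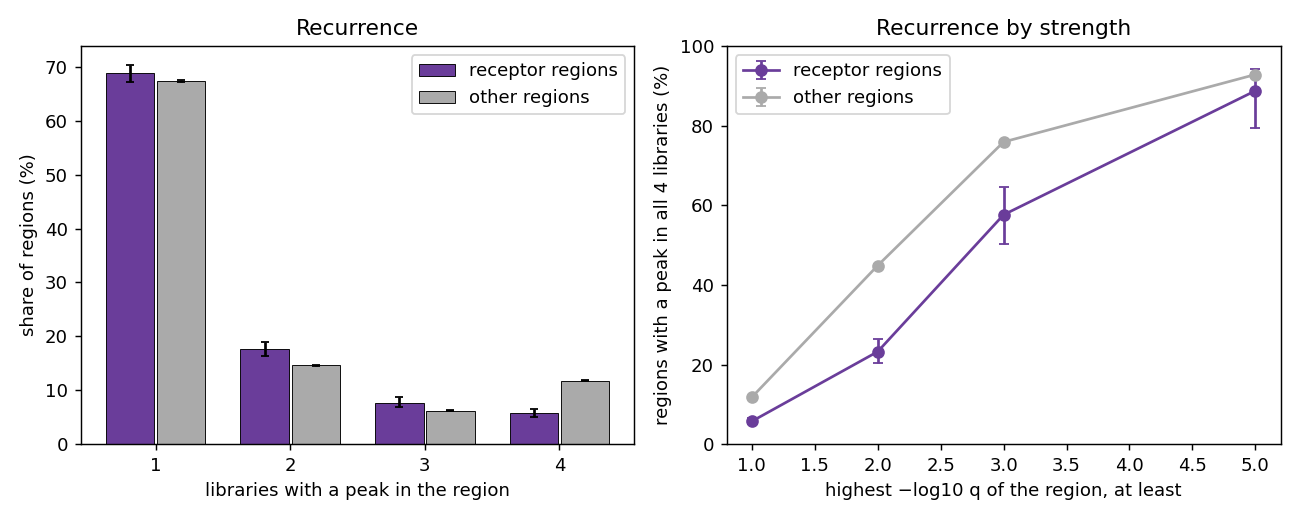
Left, share of merged regions (%) by the number of libraries with a peak in them. Right, share of regions with a peak in all 4 libraries (%) among those whose highest −log10 q reached the value on the horizontal axis. Bars and whiskers are 95% Wilson intervals. Among the strong regions 88.7% of receptor regions and 92.8% of others recurred in all 4.

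Of the regions, 13 were strong in each library. Besides the promoters of Mprip and Reck and the region at Vmn1r4, they included exon 1 of 18 of Fmn2, an actin-nucleating formin gene, named for Olfr220 (chr1:174501628-174503742), with −log10 q of 5.80, 7.21, 14.3 and 8.62. These 4 had 340 to 1584 reads in every library. Within a receptor gene itself, the strongest region lay in intron 1 of 5 of Vmn2r15, with −log10 q of 16.7, 22.6, 28.001 and 18.6 and 324, 537, 752 and 483 reads. The region at -7.37 kb from the Vmn1r194 start had −log10 q of 22.5, 16.6, 25.9 and 18.1. The region at -14.1 kb from the Olfr686 start had 11.8, 13.7, 17.9 and 19.6. Intergenic regions near Olfr161, Olfr520 and Olfr533 had lowest values of 8.23, 7.36 and 6.72. The region near Olfr161 covers the RefSeq start of 6720473M11Rik, a non-receptor gene. In 10 of these 13 regions the peaks of each library together had at least 10 high-quality reads.

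The other 3 regions had almost no high-quality reads in at least 1 library. Near Vmn1r34 the peaks had 0, 2, 0 and 2 reads at −log10 q of 5.57, 9.42, 10.6 and 7.58. Near Olfr878 they had 3, 37, 5 and 2 reads at 10.6, 7.77, 11.8 and 18.8, and near Olfr502 16, 17, 23 and 4 reads at 5.51, 5.99, 9.84 and 6.75. Such peaks were more frequent among receptor peaks. Autosomal receptor peaks with under 10 high-quality reads were 16.1%, 9.14%, 13.8% and 15.3% of the total, 6.74 ± 1.95 percentage points above the other peaks (higher in 4 of 4 libraries, exact sign-flip p = 0.13). Among strong receptor peaks the share was 20.0%, 23.7%, 13.5% and 23.5%, against 2.39% to 3.45% of strong peaks elsewhere. Of the 71 strong receptor regions 12 (16.9%, 95% Wilson interval 9.94 to 27.3) were under 10 reads in every library, and of 20464 other strong regions 442 (2.16%). The region near Olfr322 had 0 reads in each library at −log10 q of 3.95, 7.55, 4.15 and 2.41. Vmn1r peaks had the highest share under 10 reads, 42.6%, 25.7%, 30.1% and 44.0%, and Olfr peaks 12.0%, 6.48%, 10.7% and 11.5%. High-quality reads in the quality report leave out duplicates and low-quality alignments, and what fills these peaks in the caller's input was not tested. With peaks under 10 reads left out, a limit chosen after seeing the data, the difference in promoter share was -10.1 percentage points and the difference in median −log10 q -0.158.

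**Figure D4:**
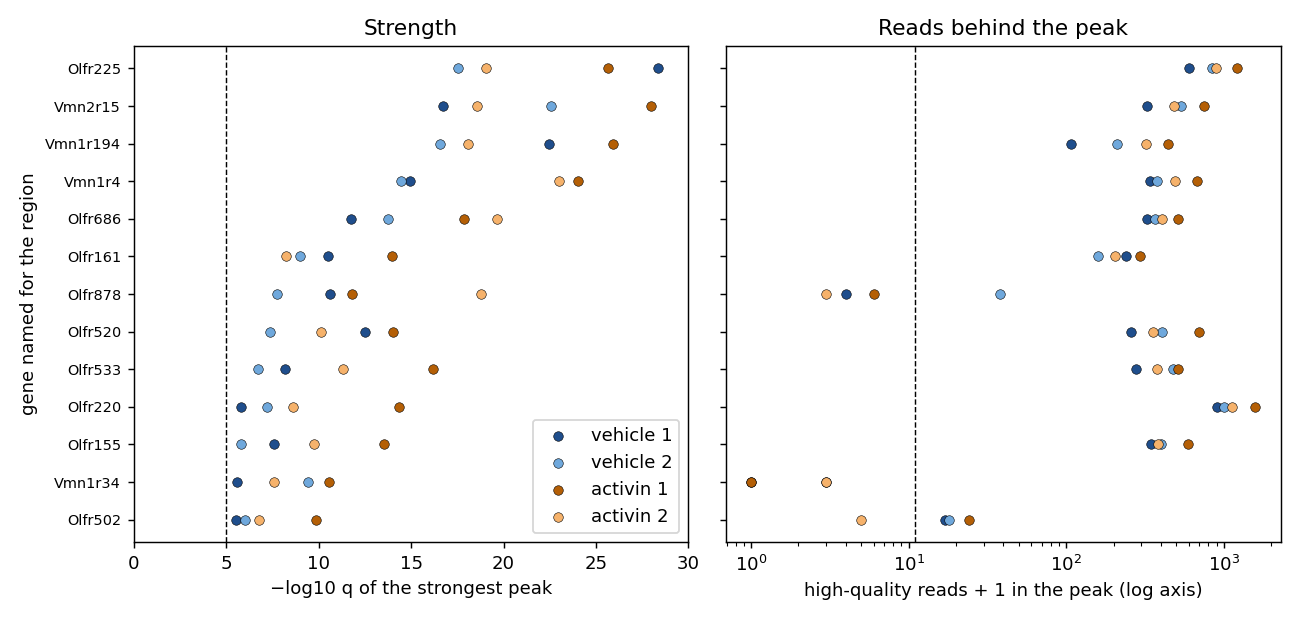
The 13 receptor regions with a −log10 q of 5 or more in each library, named by the receptor assigned to them. Left, −log10 q per library, with the dashed line at 5. Right, high-quality reads + 1, summed over the peaks of the region in that library, on a log axis, with the dashed line at 10 reads. The regions near Olfr878, Vmn1r34 and Olfr502 lie apart at low reads.

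The clusters were taken from RefSeq gene positions, joining receptor genes at most 500 kb apart. There were 60 clusters of 2 or more genes, which held 1454 of the 1474 genes over 56.4 Mb, and 87.5% of the receptor peaks had their centre inside. In all, peaks of any gene numbered 27.9, 63.4, 26.2 and 22.8 per Mb inside clusters and 32.6, 69.6, 33.3 and 27.7 per Mb outside. The log2 ratio was -0.25 ± 0.09 and negative in 4 of 4 libraries (exact sign-flip p = 0.13). Strong peaks numbered 2.13, 2.52, 3.23 and 2.82 per Mb inside and 4.88, 5.03, 7.82 and 6.23 outside. Of the strong peaks inside clusters, 43.4% to 58.3% lay within 1 kb of the start of a non-receptor gene. Against the outside of the clusters on the same chromosomes, a comparison added after seeing the data, the log2 ratio was -0.61 ± 0.08 for all peaks and -1.49 ± 0.11 for strong peaks.

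Peak density followed the chromosome as well. Reads per Mb in the quality report, scaled to 1000000 total reads, ranged from 152 to 403 over autosomes in vehicle 1, and peaks of any gene per Mb followed that level with a Spearman rho of 0.929 to 0.961 over the 17 autosomes with at least 5 receptor genes. For receptor peaks per receptor gene the rho was 0.549, 0.605, 0.657 and 0.578. For strong receptor peaks per gene it was -0.0102, -0.287, 0.118 and -0.0481. The points of a library share its depth and its peak threshold, so these values are a description, and the part of the chromosome's read level in the receptor counts was not tested.

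Clusters differed widely. Of the 32 with at least 10 receptor genes, 23 lay below the level of the same chromosome outside clusters in all 4 libraries, 5 lay above it in all 4 and 4 were mixed. The ratio to that level had a median of 0.637 over these clusters. The clusters with most genes showed both. The chromosome 2 cluster from Olfr987 to Olfr1274, with 225 genes, had 0.236 to 0.324 of the level around it. The chromosome 7 cluster from Vmn1r91 to Vmn1r183, with 86 genes, had 0.219 to 0.3334. The chromosome 7 cluster from Olfr543 to Olfr692, with 127 genes, had 0.457 to 0.822, and the chromosome 10 cluster from Olfr9 to Vmn2r87, with 63 genes, 0.580 to 0.698. The chromosome 19 cluster from Olfr1417 to Olfr1505, which also has 63 genes, had 0.528 to 0.701. The chromosome 9 cluster from Olfr160 to Olfr986, with 97 genes, had 1.04 to 1.20, above its surroundings in each library.

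The lowest peak densities among these clusters were in vomeronasal runs of chromosome 7. The cluster from Vmn2r29 to Vmn2r37 (17 genes, 2.01 Mb) had 1.49 to 2.98 peaks per Mb, and that from Vmn2r46 to Vmn1r71 (13 genes, 0.995 Mb) had 2.01 to 4.02. The third lowest was the chromosome 6 cluster from Olfr458 to Olfr47, with 7.73 to 18.0 per Mb. The highest densities were in Olfr clusters. On chromosome 11 the cluster from Olfr30 to Olfr311 (21 genes) had 77.5 to 152 peaks per Mb, with 1 to 4 strong peaks per library. On chromosome 7 the cluster from Olfr522 to Olfr541 (19 genes) had 60.8 to 173, with 2 to 5 strong. On chromosome 2 the cluster from Olfr338 to Olfr368 (27 genes) had 58.6 to 161, with 0 to 1 strong. Most peaks in these 3 clusters were weak. Clusters of Olfr genes alone had a median ratio of 0.687 (n = 18) and those with any Vmn gene 0.584 (n = 14), and their ranges of 0.253 to 1.75 and 0.0510 to 1.41 overlapped. Across the 32 clusters the ratio had a Spearman rho of 0.144 with the number of non-receptor coding genes per Mb.

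**Figure D5:**
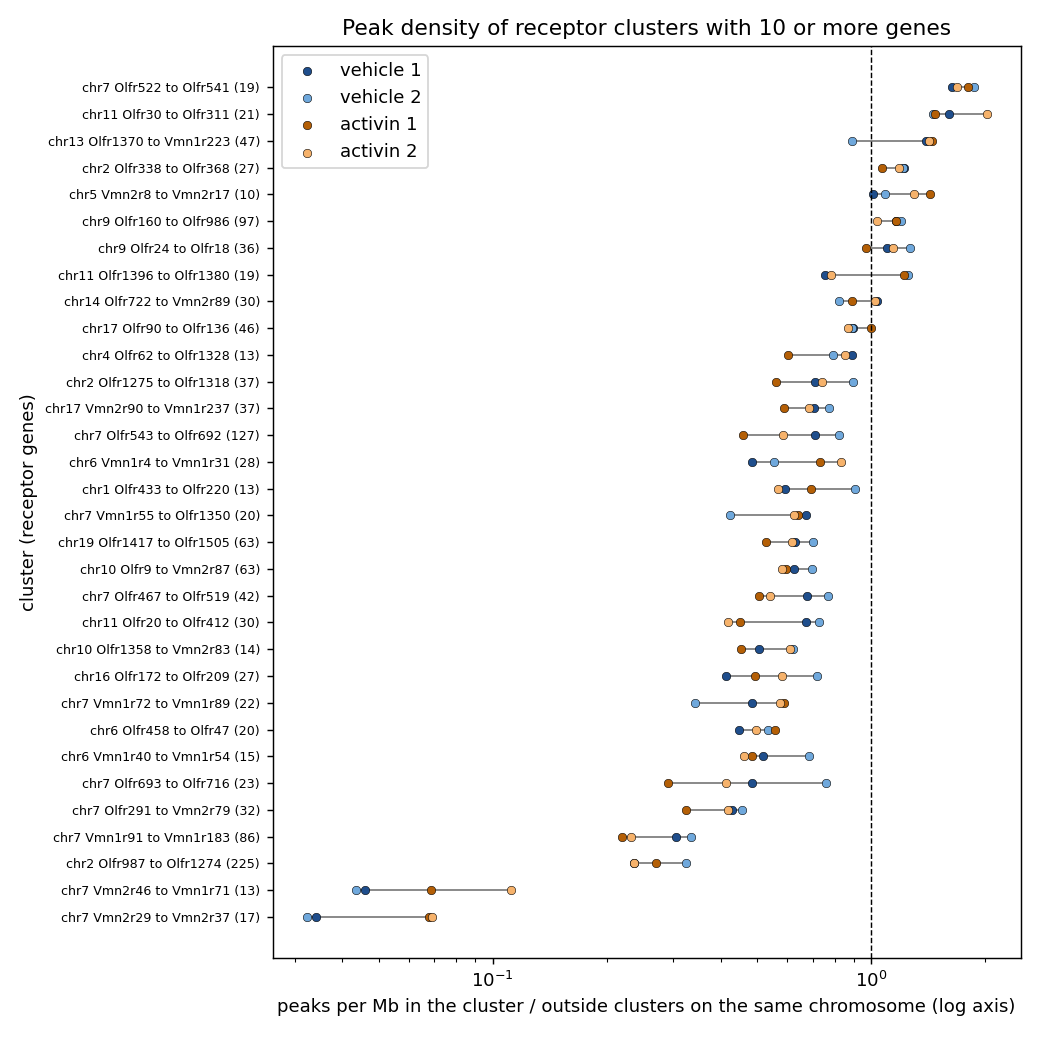
Peaks per Mb in each of the 32 receptor clusters with 10 or more genes, divided by peaks per Mb outside clusters on the same chromosome (log axis), 1 point per library, with the number of receptor genes in parentheses. The dashed line marks equal density. The chromosome 7 runs from Vmn2r29 and from Vmn2r46 lie lowest, and the clusters from Olfr522 and Olfr30 highest.

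The study's design asks what 6 h of activin changes. Among 13871 autosomal regions in which each library had a single peak, 32 were receptor regions. Limma, fitted on log2(high-quality reads + 1) per kb over all of these regions and centred on each library's median, called 0 of the 32 at a Benjamini-Hochberg adjusted p under 0.05, and 0% of all regions (0 of 13871). At an unadjusted p under 0.05 there were 2 of 32 receptor regions (6.25%), against a background of 9.53% of all regions. The 1 that was higher with activin compares with 3.62% of all regions, and the 1 that was lower with 5.91%. On the centred log2 values the groups did not overlap in 9 receptor regions. In 5 of these the activin values were the higher (background 20.9% of all regions), and in 4 the lower (background 20.5%). The median log2 difference was 0.00 in receptor regions and -0.00 in all regions. Centring each library on its median holds the second value near 0, so it cannot show a shift shared by all regions. Scaled to all high-quality reads instead, the medians were 0.277 and 0.269.

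The smallest p belonged to an intergenic region 21.2 kb from Vmn2r84 (chr10:130372249-130373532), with 92.0 kb to the nearest non-receptor start, that of Neurod4, a neurogenic transcription factor gene. It had 1.52, 1.32, 2.49 and 2.27 high-quality reads per kb per 1000000 reads. The groups did not overlap in these units or on the centred values. After centring, the log2 difference was 0.47 ± 0.14 (SE), with limma adjusted p = 0.412. Its −log10 q was 4.46, 8.14, 22.9 and 14.6. When libraries were scaled to all high-quality reads instead of their median region, which shifted the median of all regions by 0.27, the difference was 0.75 with limma adjusted p = 0.0284, the 1 receptor region called under that scaling. Without division by interval length the difference was 0.11 with limma adjusted p = 0.859. On the other side, the region near Vmn1r184 had 0.148, 0.112, 0.0509 and 0.0255 reads per kb per 1000000, from 26, 24, 11 and 3 reads. Its log2 difference was -1.90 ± 0.57 with limma adjusted p = 0.412. Its groups did not overlap either, with few reads behind each value.

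None of the next regions by p passed the test. Near Vmn1r82 the reads were 0, 1, 5 and 3, and the fitted log2 difference of 1.54 ± 0.80 depends on the added read. In the Fmn2 exon named for Olfr220 the density was 2.57, 2.21, 3.41 and 3.04 per kb per 1000000, and the log2 difference was 0.16 ± 0.11. Near Olfr1402 it was -0.56 ± 0.38, with overlapping groups, and the region near Olfr926 had 2, 1, 1 and 0 reads. At the region near Vmn1r4 the difference was 0.01 ± 0.12.

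Presence of a peak gave no larger set for activin. Merged regions numbered 3439 with a receptor peak and 251662 without. Receptor regions found in both vehicle libraries and in neither activin library numbered 217, and those found in both activin libraries alone numbered 26. They were 1.75% of the 12397 regions of any gene with the first pattern and 0.753% of the 3454 with the second, so regions of all genes also had the higher number in the vehicle pair. For the 4 mixed pairs, of 1 library per treatment, the numbers were 29, 36, 179 and 121 (1.21%, 2.56%, 1.65% and 1.76% of all such regions). The 2 larger numbers belong to the pairs with vehicle 2, the library with the longest list. The vehicle pair also holds that library, and the activin pair does not. Receptor regions found with a single treatment were weak, with a median lower −log10 q of 1.34 for the vehicle pair and 1.48 for the activin pair. The strongest found with vehicle alone were near Vmn1r62, Olfr323 and Olfr872, with −log10 q of 3.08 and 2.69, 4.30 and 2.43, and 2.42 and 2.99. The peaks near Vmn1r62 had 0 and 9 reads. The strongest found with activin alone were near Olfr792, Olfr372 and Olfr201, with 6.04 and 2.67, 2.53 and 2.40, and 3.89 and 2.39. Those near Olfr372 had 10 and 8 reads. Strong receptor peaks as a share of receptor peaks were 1.77% ± 0.284 with vehicle and 4.83% ± 0.805 with activin (SD, n = 2, exact permutation p = 0.33), while enrichment of reads at start sites was 2.72, 2.48, 3.12 and 3.04, and the strong share of other peaks moved in the same direction.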

How the data were processed

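ATAC-seq was measured in 4 LβT2 libraries. The submitters' processing notes name Bowtie2, MACS2 and HOMER and the builds GRCm38 and mm10; versions are not given in the sources used here. Peaks were called by the authors on each library alone. In the deposited peak lists each broad peak carries a score, a fold enrichment and −log10 values of p and q, of which that of q was used as strength; the deposited score was not used. Gene, class and distance come from the authors' HOMER annotation, and high-quality autosomal reads per peak from the deposited ataqv 1.3.1 reports, per the file headers.

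Peaks overlapping by at least 1 bp were merged into regions, and a region's strength in a library is that of its strongest peak. The reads of a region in a library are summed over its peaks there. Shared regions had 1 peak per library and a common part of at least 50%. They were tested with limma 3.58.1 in R 4.3.3 (trend, no block) with a pseudocount of 1 read, so a fold change understates changes of regions with few reads. The step was tested on simulated data. Of 200 regions given a log2 change of 1 in either direction, 171 were called, and 20 unchanged regions were called with them. With no region changed, 1 was called. Other values were computed with Python 3.11.15, pandas 2.3.3 and scipy 1.17.1. Clusters, start sites and promoter windows come from RefSeq tables of GRCm38.p6. Libraries held 172146474 to 224226184 high-quality autosomal reads. Alternatives are listed in the closing section.

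The members, lists and limits were chosen with earlier results of these data known. Named in the text are the 5 strongest receptor peaks per list, up to 10 promoter regions in 2 or more libraries, the 10 strongest regions in all 4 libraries, 3 regions restricted to each treatment, the 3 shared regions of smallest p in each direction, and clusters by gene number (5) and by highest and lowest density (3 each). The 13 regions strong in every library, Olfr322, Olfr229, Olfr877, Olfr329 and the region at Vmn1r4 were also named after their values were seen.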

Additional observations from a re-analysis of the deposited data

How the results depend on the processing

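The differences in promoter share, in median strength and in cluster density kept their direction under every alternative run for them. Promoter share ranged from -38.1 to -8.75 percentage points, median −log10 q from -3.51 to -0.121 and the log2 density ratio from -1.15 to -0.21. The difference in the receptor share of lists turned to 0.00904 percentage points when lists were limited to a −log10 q of 5 or more, and lay between -0.256 and -0.0877 under the other alternatives. The share of receptor regions found in 1 library was 72.5% from a −log10 q of 2 upward, 48.6% from 5 upward, 73.6% when an overlap of 50% of the shorter peak was required, 70.9% for peaks with at least 10 high-quality reads (added after seeing the data), and 72.6% to 75.1% when a library was left out, where fewer libraries were merged.

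Scaling to all high-quality reads called 1 receptor region, that near Vmn2r84, and 605 of all regions, of which 553 were higher with activin. No other alternative called a receptor region. Over all regions 39 were called without division by length, 1 with a pseudocount of 10 reads and 0 to 9 with a library left out. With the replicate number as a block, 0 receptor regions and 4 of all regions were called. Same-numbered libraries did not deviate together (correlation -0.0252 over 13871 regions), and the labels do not say what they share, so the numbers were not taken as pairs. With a common part of at least 80%, 3 receptor regions were left to test.

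With 2 libraries per treatment no exact permutation test of a single value can pass 0.05. Peaks were called per library, so their presence depends on each list's depth and background. Intervals cover counting error only.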

Other observations

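Starts of genes that act in receptor gene choice were examined too, and their share with a peak was not tested against that of other genes. Of 10 factors linked to receptor choice in olfactory neurons, 8 had a peak within 1 kb of the start in the RefSeq promoter table in all 4 libraries, beside 57.5% of other protein-coding genes. Lhx2, a LIM homeodomain factor that binds receptor enhancers and is also expressed in pituitary, had −log10 q of 20.1, 18.8, 43.1 and 32.1 (vehicle 1, vehicle 2, activin 1, activin 2). Its partner Ldb1 had 13.7, 6.78, 18.4 and 13.3. Lbr, the lamin B receptor, had 40.1, 32.6, 60.3 and 47.5. Ebf3 had weak peaks in all libraries, 1.87, 1.51, 2.11 and 1.22. Ebf1 and Emx2 had weak peaks in the vehicle libraries, 1.499 and 1.79 for Ebf1 and 1.15 and 1.52 for Emx2, and none with activin. Over all genes, 12397 regions had peaks in the vehicle pair alone and 3454 in the activin pair alone. A change with activin at these 2 genes was not tested. Of 11 genes of odorant signalling and neuron identity with a start in the table, 4 had a peak in all libraries. These were Ric8b, Gnao1, Gng13 and Rtp2. Ric8b and Gnao1 were strong in each library, while −log10 q was 2.44 to 5.29 for Gng13 and 2.09 to 3.37 for Rtp2. Adcy3, Cnga2, Cnga4 and Cngb1, whose products carry the odorant signal, had no peak in any library. Ano2, Stoml3 and Trpc2 had a weak peak in vehicle 2 alone.

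Other chemoreceptor families were measured in the same way. Of 11 trace amine receptor genes (Taar) and 3 formyl peptide receptor genes (Fpr), 0 had a peak within 1 kb of the start in any library. Of 31 bitter taste receptor genes (Tas2r), 29 had none in any library. Of 3 sweet and umami taste receptor genes (Tas1r), 1 had a peak in all 4 libraries and 1 had none, and 1 had a strong peak in each activin library.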
